A study of Mus musculus with 6 samples.

Results

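The interferon response and nucleic acid sensor genes described here are 35 mouse genes, chosen by name as sensors of foreign RNA and DNA, transcription factors of the interferon pathway and genes that interferon induces. They were looked up by their GENCODE M21 symbols among the 41388 genes of an RNA-seq table. Each of the 35 was found, and 33 of them passed a filter on low values and were tested, out of 12693 genes tested in all. Oas2 and Mx1 had a mean under 0.5 RPKM and are given by their levels only.

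The cells were primary murine hepatocytes from C57BL/6J mice, isolated with collagenase, rested overnight in growth medium and then treated with adenovirus for 24 h. The dose was about 1000000 viral particles per 1000000 cells. In 3 libraries (β-gal 1, 2 and 3) the virus encoded β-gal, a bacterial enzyme without a role in liver metabolism that serves as the control cargo. In the other 3 (Aloxe3 7, 8 and 9) it encoded Aloxe3, an epidermal-type lipoxygenase with hydroperoxide isomerase activity that was under study as a factor of the hepatic fasting response. Both groups therefore received an adenovirus, and no library of cells without virus was analysed here. A comparison of the groups shows a difference between the cargoes and not the response to the virus, which the groups share, and a cargo and its virus preparation cannot be told apart. Neither the age nor the sex of the mice, nor whether the libraries of a group came from separate animals or cultures, is given in the sources used here, so p-values measure the spread between these libraries only.

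Interferon defense begins when a cell senses nucleic acid that is out of place. Helicases in the cytosol bind viral RNA and signal through adapters to Irf3 and Irf7, which switch on interferon genes. Secreted interferon binds its receptor, and the kinases Jak1 and Tyk2 activate STAT proteins such as Stat2, which joins Irf9 in a complex that binds interferon-stimulated response elements (ISREs) in the promoters of a large set of genes. Many products of these genes block viral RNA, viral translation or budding, and some are sensors themselves, so that the pathway feeds on itself. Hepatocytes carry this pathway, and adenovirus vectors are a known stimulus of it in liver.

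The ISRE is the sequence that many of these genes share, and a stretch of the promoter is shown for 7 members to which the results below refer. The core searched was GAAA, any 2 bases and GAAA again, on both strands, in RefSeq windows that run from 250 bases before to 50 bases after each start (GRCm38.p6). Capitals mark the cores, which appear as runs of TTTC when the core lies on the opposite strand. Isg15 is shown for its run of 3 overlapping cores (chr4:156200855-156200916, minus strand), and Bst2 (chr8:71537567-71537622, minus strand) as the member with the highest level. Ifit1 (chr19:34640765-34640833, plus strand), Ifit2 (chr19:34550574-34550633, plus strand) and Ifit3 (chr19:34583353-34583436, plus strand) are shown because this family held the 2 smallest p-values among the members. Oas1a (chr5:120907526-120907565, minus strand) has cores directly before its start, and Eif2ak2 (chr17:78882535-78882564, minus strand) has one just after it.
Isg15: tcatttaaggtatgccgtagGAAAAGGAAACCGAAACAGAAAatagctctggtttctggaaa
Bst2: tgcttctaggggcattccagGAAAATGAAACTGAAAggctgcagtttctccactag
Ifit1: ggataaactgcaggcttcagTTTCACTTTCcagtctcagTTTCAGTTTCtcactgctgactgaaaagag
Ifit3: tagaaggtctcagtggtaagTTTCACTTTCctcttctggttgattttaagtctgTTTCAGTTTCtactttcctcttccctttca
Ifit2: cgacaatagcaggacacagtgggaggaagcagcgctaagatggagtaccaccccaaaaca
Oas1a: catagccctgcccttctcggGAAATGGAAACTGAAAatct
Eif2ak2: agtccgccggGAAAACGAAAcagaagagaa

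A promoter window was matched for 26 of the 35 members. An ISRE core was found in 13 of these 26 genes, or 50.0%, against 4.0% of all 26994 genes with a window. The core of the gamma-activated site (GAS), TTCNNNGAA, a motif of the response to interferon gamma, was found in 7 of the 26 members, or 26.9%, against 9.6% of all genes. In Bst2 the GAS core overlapped the first ISRE core. Irf1, a transcription factor known for its GAS, held that core 90 bases before its start and no ISRE core. Ifit2 held no ISRE core in any of its windows, which says only that these letters are not there.

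**Figure D1:**
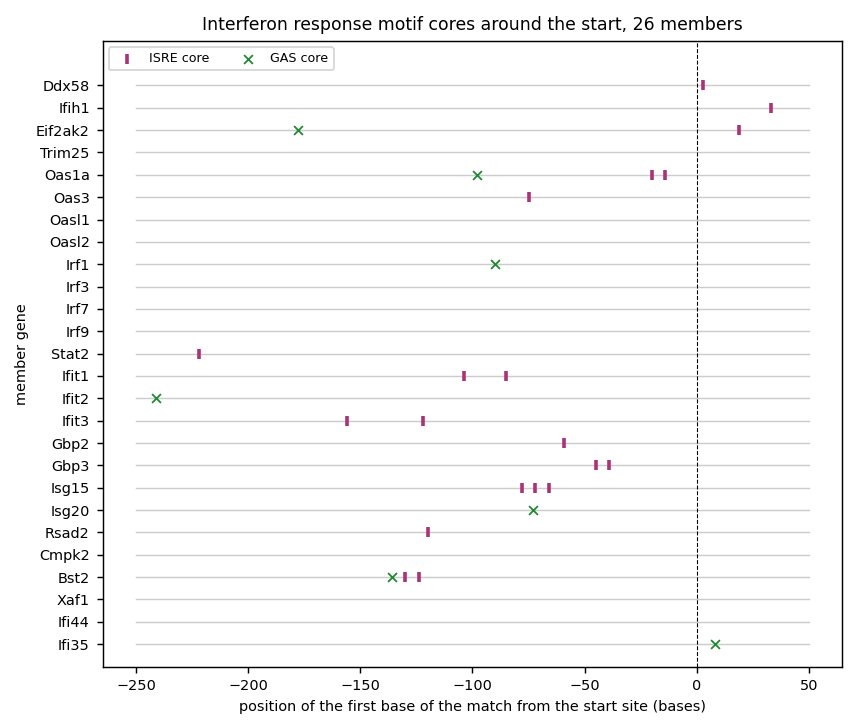
Positions of ISRE cores (bars) and GAS cores (crosses) in the promoter windows of 26 members, with the distance from the start site in bases on the horizontal axis and 1 gene a line. ISRE cores lie in 13 of the 26 genes, and those of Ddx58, Ifih1 and Eif2ak2 lie after the start.

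The values are RPKM, reads per kilobase of exon and scaled to the library size, so levels can be set side by side between genes. Libraries held 25521908 to 32431318 reads, and a single read equals 0.0308 to 0.0392 RPKM for a transcript of 1 kb. The labels were checked on Aloxe3 itself, which was at 2.04, 2.06 and 1.74 RPKM in the β-gal libraries and at 42.3, 45.8 and 56.3 RPKM in the Aloxe3 libraries. On the scale tested, log2(RPKM + 1), the difference was 4.05 (SE 0.10, limma, adjusted p = 4.74e-06). The hepatocyte label was checked on 8 markers, whose summed level was 4924 to 4974 RPKM with β-gal and 4783 to 4920 RPKM with Aloxe3, without overlap and mostly Alb. Cps1 and Tat, which mark mature hepatocytes in liver, were low in every library. Cps1 was at 0.915 to 1.05 RPKM with β-gal and 1.29 to 1.64 RPKM with Aloxe3, and Tat at 0.193 to 0.346 and 0.438 to 0.661 RPKM, both without overlap. Apoa1 lay the other way, at 241 to 246 RPKM with β-gal and 218 to 235 RPKM with Aloxe3. Of the 7 hepatocyte markers tested, 3 lay above 0 and 4 below, and at an unadjusted p under 0.05 there was 1 in each direction. Of 13 markers of dendritic cells and lymphocytes, which can make interferon, 2 were at 0 in every library and none passed the filter, with a summed level of 0.313 to 0.379 RPKM with β-gal and 0.346 to 0.359 RPKM with Aloxe3. Those of endothelial cells summed to 29.1 to 33.5 and 28.6 to 33.1 RPKM, and those of stellate cells to 3.51 to 4.04 and 3.60 to 3.99 RPKM, each with overlapping groups. The 12 markers of Kupffer cells and macrophages summed to 163 to 170 RPKM with β-gal and to 144 to 158 RPKM with Aloxe3, without overlap. Most of that sum was Cd68, and without it the ranges were 14.8 to 21.9 and 14.8 to 18.0 RPKM. Over all 6 libraries, Clec4f, Timd4 and Vsig4 were at or under 0.102 RPKM, whereas Lyz2 was at 6.65 to 9.50, C1qb at 1.62 to 2.42, Adgre1 at 1.47 to 1.99, Csf1r at 1.11 to 1.68, Marco at 0.705 to 1.18 and Cd5l at 0.355 to 1.16 RPKM. RNA of macrophage markers was thus present in both groups. The part of these markers in the results that follow was not tested. In bulk RNA, fewer cells of a type and less RNA per cell cannot be told apart.

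RNA of the interferon-stimulated genes was present in the hepatocyte cultures of both groups, over a wide range of levels. With β-gal the 35 members ran from 0.300 RPKM (Oas2) to 593 RPKM (Bst2), with a median of 10.0 RPKM against 6.85 RPKM over all tested genes. At least 1 RPKM was reached by 33 of them, 10 RPKM by 18 and 50 RPKM by 4. Of the 33 tested members, 21 lay above the median level of all tested genes, and 6 lay in the top 10% (Bst2, Irf7, Oasl1, Isg15, Usp18 and Trim25). In this order Irf7 and Oasl1 stood well apart from their neighbours, whereas Isg15 and Usp18, at 50.6 ± 1.08 and 49.8 ± 0.616 RPKM with β-gal (SD, n = 3), did not differ beyond their spread. Replicates were close: the coefficient of variation within a group had a median of 5.23% with β-gal and 4.52% with Aloxe3, and its highest value, 27.1%, belonged to Oas2 with Aloxe3, which rested on 37 to 64 reads a library.

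**Figure D2:**
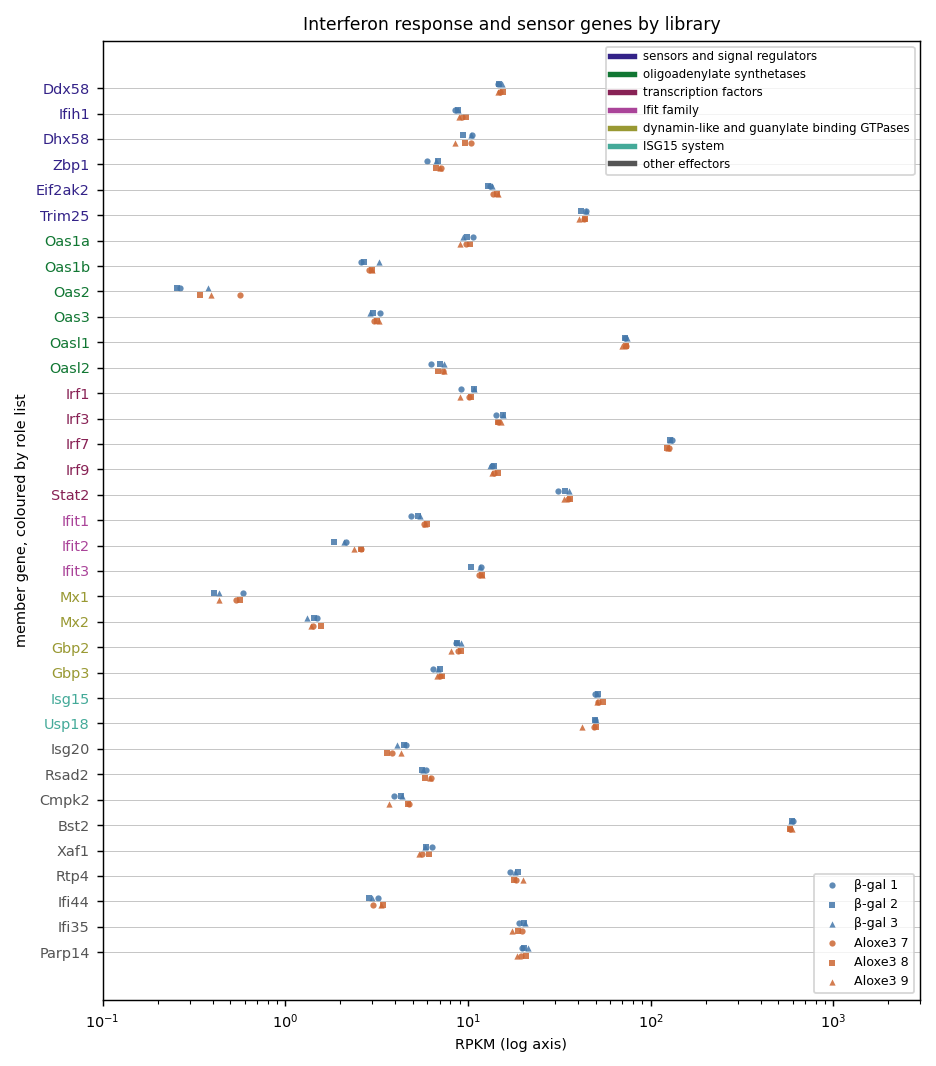
Level of each of the 35 members in each library, in RPKM on a log axis, with β-gal in blue and Aloxe3 in orange and gene names colored by role. Levels run from 0.300 RPKM (Oas2) to 593 RPKM (Bst2) as β-gal means, and for most genes the blue and orange points lie on top of each other.

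No member passed the test between hepatocytes overexpressing Aloxe3 and those expressing β-gal. With limma on log2(RPKM + 1) and Benjamini-Hochberg adjustment over all tested genes at 0.05, 0 of 33 members were called, against 0.394% of all tested genes (50 of 12693), 0.355% being higher and 0.0394% lower with Aloxe3. Their adjusted p ran from 0.245 to 0.957. At an unadjusted p under 0.05, 3 members were counted, each with the higher mean with Aloxe3 (Ifit2, Ifit1 and Eif2ak2). That is 9.1% of the 33, against 12.7% of all genes in either direction, 7.31% in that direction and 5.42% in the other. A fit with voom in limma, on reads derived from the RPKM values, called 0 members too, against 1.22% of all genes, and put 3 at an unadjusted p under 0.05, against 15.0%.

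The size of the differences is given for the 33 tested members, gene by gene. The largest log2 fold changes were 0.22 (Ifit2) and -0.13 (Isg20), and the 95% intervals of the 33 members lay between -0.28 and 0.36. On the scale of RPKM + 1, this is at most 1.28-fold higher and 1.22-fold lower, a scale that shrinks the change of genes with low levels. In voom the widest ends of the intervals were 0.51 for Ifit2 (1.42-fold higher) and -0.39 for Isg20 (1.31-fold lower). Oas2, which was not tested, had a ratio of mean RPKM of 1.44. The median interval reached 0.124 to either side of its estimate. An exact permutation test of 3 against 3 libraries could not give a two-sided p below 0.1 for a single gene.

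**Figure D3:**
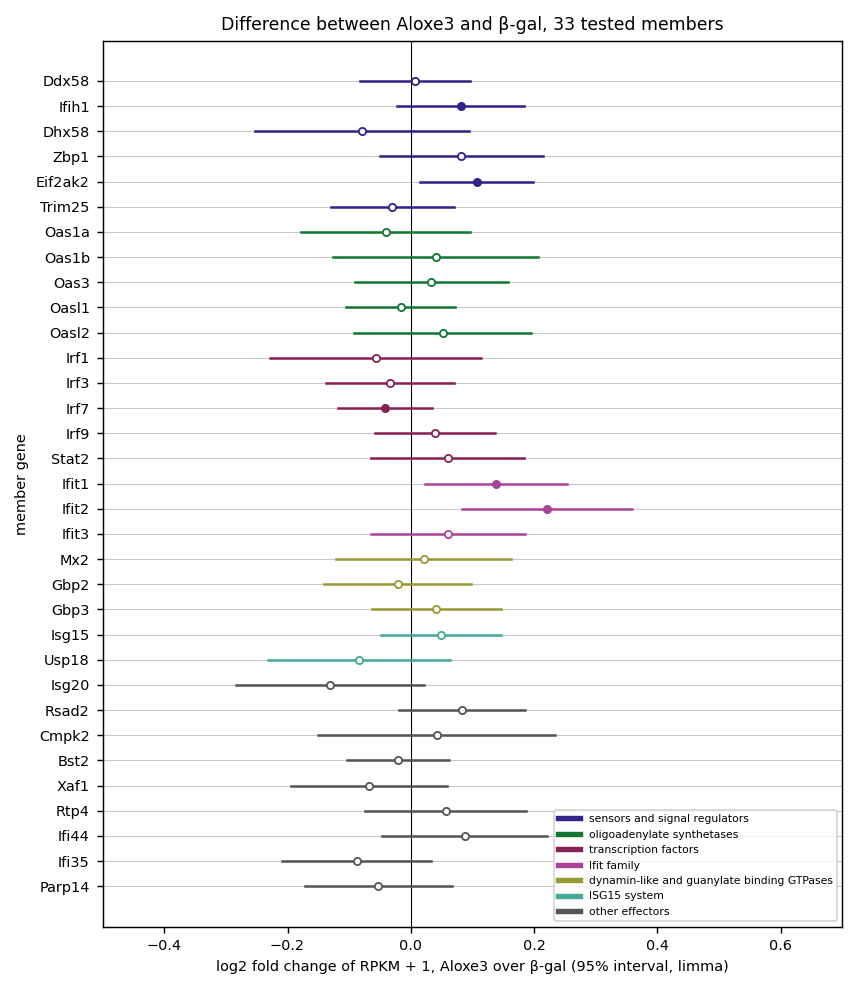
Log2 fold change of RPKM + 1 between Aloxe3 and β-gal for the 33 tested members (dots) with the 95% interval from limma (lines), colored by role; filled dots are genes whose groups do not overlap. The 33 intervals lie between -0.28 and 0.36, and those of Eif2ak2, Ifit1 and Ifit2 do not reach 0.

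Members lay on both sides of 0, with 19 above and 14 below. Their median log2 fold change was 0.03, and that of all tested genes was 0.0049. The sign of the members' median turned with a filter at 5 RPKM (-0.0049) and without Aloxe3 8 (-0.0017), and the median fell to 0.0006 without β-gal 1. The median of all tested genes under the same settings was -0.0097, -0.0002 and -0.001, so that it turned as well. For 5 of the 33, or 15.2%, the 3 values of one group lay all outside those of the other, against 19.9% of all tested genes. Aloxe3 lay above in 4 (Ifih1, Eif2ak2, Ifit1 and Ifit2), against 11.2% of all genes, and below in 1 (Irf7), against 8.71%.

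Libraries of the same group also differed from each other. Of the 33 tested members, 11 had their lowest value in β-gal 1 and another 11 in Aloxe3 9, and 9 had their highest in Aloxe3 8 and 9 in β-gal 3. As medians over the members, libraries deviated from the gene means by -0.02, -0.0001 and 0.0005 with β-gal 1, 2 and 3, and by 0.0067, 0.04 and -0.02 with Aloxe3 7, 8 and 9, on the log2(RPKM + 1) scale. The medians of all tested genes moved in the same direction in β-gal 1 (-0.01), Aloxe3 8 (0.01) and Aloxe3 9 (-0.02). The highest median belonged to Aloxe3 8 and the lowest to β-gal 1, with Aloxe3 9 next to it, so that the groups overlapped. The counts moved with these libraries as well. Members at an unadjusted p under 0.05 numbered 1 without β-gal 1 or without Aloxe3 8 (3.03% of the 33, against 9.3% and 11.6% of all tested genes in the same fits), and 5 without Aloxe3 9 (15.2%, against 12.2%).

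**Figure D4:**
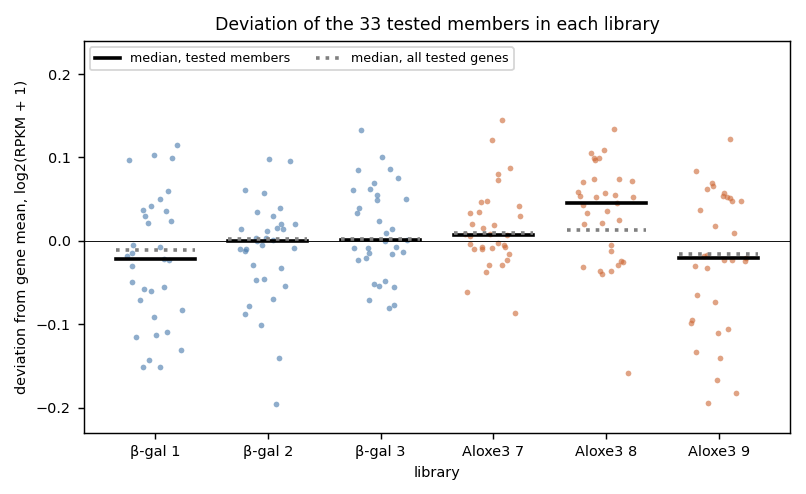
Deviation of each tested member from its mean over the 6 libraries, on the log2(RPKM + 1) scale, by library; dots are genes, solid lines the members' median and dotted lines the median of all 12693 tested genes. Aloxe3 8 has the highest median of the members (0.04) and β-gal 1 and Aloxe3 9 the lowest (-0.02 each).

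Among the sensors and signal regulators, 0 of 6 were called, against 0.394% of all tested genes, and the median log2 fold change was 0.04. An unadjusted p under 0.05 was found in 1, or 16.7%, against 12.7% of all tested genes. The groups did not overlap in 2, or 33.3%, against 19.9%. With 6 genes, these counts are no result about the set. Eif2ak2 (ENSMUSG00000024079, chr17:78852564-78882573) encodes PKR, the kinase that double-stranded RNA activates to stop translation. It was at 13.2, 12.8 and 13.5 RPKM with β-gal and at 13.8, 14.4 and 14.6 RPKM with Aloxe3. Every Aloxe3 library lay above every β-gal library, by a log2 fold change of 0.11 (SE 0.04, limma, unadjusted p = 0.0276, adjusted p = 0.333). Without β-gal 2 the unadjusted p was 0.107. Ifih1 (ENSMUSG00000026896, chr2:62595798-62646255), the helicase MDA5 that senses long double-stranded RNA, was at 8.53, 8.82 and 8.87 RPKM and at 9.26, 9.77 and 8.89 RPKM. Its groups did not overlap either, but Aloxe3 9 and β-gal 3 nearly touched (log2 fold change 0.08, SE 0.04, limma, adjusted p = 0.496). Trim25, a ubiquitin ligase that acts on RIG-I and the most abundant gene of this set, was at 44.2, 41.5 and 44.4 RPKM with β-gal and 43.1, 43.5 and 40.7 RPKM with Aloxe3, with the groups mixed. The other 3 had overlapping groups. They are Ddx58, the helicase RIG-I itself, at 15.0 RPKM in both groups, Dhx58, the related helicase LGP2 (10.1 ± 0.626 and 9.50 ± 0.98 RPKM), and Zbp1, a sensor of Z-form nucleic acid (6.52 ± 0.498 and 6.95 ± 0.222 RPKM; SD, n = 3 each).

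The oligoadenylate synthetases make short adenylate chains that switch on RNase L, which then cuts RNA. None of the 5 tested was called, none had an unadjusted p under 0.05, and the groups of each overlapped. Oasl2, an oligoadenylate synthetase-like gene, had the smallest p of the set and was at 6.26, 7.00 and 7.42 RPKM with β-gal and 7.29, 6.82 and 7.39 RPKM with Aloxe3. β-gal 1 was the low library here, and the others were mixed. Oas1a was at 10.7, 9.95 and 9.45 RPKM and at 9.79, 10.3 and 9.05 RPKM, with the groups interleaved. Oasl1, which in mouse restrains translation of Irf7, had the highest level, with 72.4, 72.1 and 74.7 RPKM and 73.6, 73.7 and 69.4 RPKM. Only Aloxe3 9 lay apart, on the low side. Oas1b, of which C57BL/6 mice carry a truncated allele, was at 2.86 and 2.95 RPKM as group means, and Oas3 at 3.07 and 3.17 RPKM. Oas2, below the filter, was at 0.265, 0.256 and 0.380 RPKM with β-gal and 0.563, 0.340 and 0.391 RPKM with Aloxe3. Its groups overlapped, since Aloxe3 8 lay under β-gal 3. Several of these genes have close paralogs (Oas1a and Oas1g, for example), and as only reads with a unique position were counted, their levels are uncertain.

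Among the transcription factors 0 of 5 were called and none had an unadjusted p under 0.05. Irf7 (ENSMUSG00000025498, chr7:141262706-141266481), the interferon regulatory factor that amplifies interferon production and is itself induced by interferon, was the second most abundant member. It was at 131, 127 and 128 RPKM with β-gal and at 127, 124 and 125 RPKM with Aloxe3. The groups met without overlapping, with Aloxe3 below, and the log2 fold change was -0.04 (95% interval -0.12 to 0.04, limma, adjusted p = 0.635). Stat2, which carries the activating domain of its complex with Irf9, was at 31.3, 34.2 and 35.6 RPKM and at 35.4, 36.2 and 33.8 RPKM, and β-gal 1 alone was low. Irf9, the DNA-binding partner in that complex, was at 13.6 ± 0.38 and 14.0 ± 0.524 RPKM. Irf3, which is switched on by phosphorylation and not by a change in its RNA, was at 15.2 ± 0.742 and 14.8 ± 0.34 RPKM. Irf1 was at 10.3 ± 0.936 and 9.85 ± 0.717 RPKM, with the lowest value in Aloxe3 9 and the next in β-gal 1 (SD, n = 3 each).

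The Ifit proteins bind foreign RNA and keep it from being translated. The 3 genes lie within 99.3 kb of chromosome 19, and 0 of 3 were called while 2 had an unadjusted p under 0.05, which 12.7% of all tested genes had. With 3 genes in one cluster, this count is no result about the family. Ifit2 (ENSMUSG00000045932, chr19:34550694-34576419) was at 2.15, 1.85 and 2.09 RPKM with β-gal and at 2.61, 2.59 and 2.39 RPKM with Aloxe3, on 236 to 309 reads a library. Each Aloxe3 library lay above each β-gal library. Means were 2.03 ± 0.156 and 2.53 ± 0.123 RPKM (SD, n = 3), and the log2 fold change was 0.22 (SE 0.06, 95% interval 0.08 to 0.36, limma, unadjusted p = 0.00638, adjusted p = 0.245). In voom, which adds no whole RPKM before the log, it was 0.32 (adjusted p = 0.114), and over the libraries left out in turn the unadjusted limma p was 0.00649 to 0.0277. Ifit1 (ENSMUSG00000034459, chr19:34640871-34650009) was at 4.89, 5.33 and 5.50 RPKM with β-gal and at 5.75, 6.01 and 5.83 RPKM with Aloxe3. Here too the groups did not overlap, and β-gal 1 was the lowest (log2 fold change 0.14, SE 0.05, limma, unadjusted p = 0.0246, adjusted p = 0.323). Without β-gal 1 its unadjusted p was 0.0819. Ifit3 (chr19:34583531-34588731), which lies between the other two, was the most abundant of the family and was at 11.8, 10.4 and 11.6 RPKM and at 11.5, 11.9 and 12.0 RPKM. Its groups overlapped, with β-gal 2 low (log2 fold change 0.06, limma, adjusted p = 0.672). The promoter stretches of Ifit1 and Ifit3 printed above were cut around their pairs of ISRE cores. That of Ifit2 is a fixed slice of a window without a core, so the stretches cannot be compared like for like.

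The Mx proteins are dynamin-like GTPases against viruses, and the guanylate binding proteins are GTPases that gather on the membranes around pathogens. None of the 3 tested was called or had an unadjusted p under 0.05, and the groups of each overlapped. Gbp2, the most abundant, was at 8.62, 8.68 and 9.17 RPKM with β-gal and at 8.80, 9.15 and 8.11 RPKM with Aloxe3. Gbp3, its neighbor on chromosome 3, was at 6.45, 7.00 and 6.89 RPKM and at 7.05, 7.18 and 6.78 RPKM. Both had their highest and lowest values split between the groups. Mx2, which GENCODE M21 labels a polymorphic pseudogene, was at 1.50, 1.44 and 1.32 RPKM and at 1.42, 1.57 and 1.38 RPKM. Mx1, of which most laboratory strains, C57BL/6 among them, carry a defective allele, was below the filter at 0.587, 0.406 and 0.436 RPKM and 0.537, 0.568 and 0.436 RPKM. The values of both Mx genes were interleaved.

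Isg15, a ubiquitin-like protein that is joined to other proteins during an interferon response, was at 49.4, 51.5 and 51.0 RPKM with β-gal and at 51.3, 55.2 and 50.9 RPKM with Aloxe3. Aloxe3 8 was high and the other 5 libraries lay close together. Usp18, the protease that removes Isg15 and also damps the interferon receptor, was at 49.4, 49.5 and 50.5 RPKM and at 48.9, 50.2 and 42.1 RPKM. Aloxe3 9 alone was low, and without it the 2 other Aloxe3 libraries lay within 1 RPKM of the β-gal range. Neither gene was called (limma, adjusted p = 0.662 and 0.611).

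Of the 9 other effectors 0 were called, 0 had an unadjusted p under 0.05 and all 9 had overlapping groups. Bst2, the membrane protein tetherin that holds budding virus to the cell, was the most abundant member at 599, 594 and 586 RPKM with β-gal and 582, 579 and 592 RPKM with Aloxe3. Its log2 fold change of -0.02 had a 95% interval of -0.10 to 0.06 (limma). Isg20, an exonuclease for RNA, had the smallest p of the set and was at 4.57, 4.49 and 4.09 RPKM and at 3.84, 3.60 and 4.31 RPKM. Aloxe3 9 lay among the β-gal values and the other Aloxe3 libraries under them (log2 fold change -0.13, SE 0.07, limma, adjusted p = 0.449). Rsad2, or viperin, an enzyme that makes a chain-terminating nucleotide, was at 5.86, 5.57 and 5.67 RPKM and at 6.29, 5.84 and 6.18 RPKM, and only Aloxe3 8 reached into the β-gal range. Cmpk2, a nucleotide kinase that lies next to Rsad2 within 37.1 kb of chromosome 12, had a log2 fold change of 0.04 against 0.08 for Rsad2, with its lowest value in Aloxe3 9 (3.69 RPKM). The other 5 effectors, Xaf1, Rtp4, Ifi44, Ifi35 and Parp14, had β-gal means from 3.02 (Ifi44) to 20.5 RPKM (Parp14) and log2 fold changes from -0.09 (Ifi35) to 0.09 (Ifi44).

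Members with and without the ISRE core were set side by side as a description. The 13 with a core had a median log2 fold change of 0.05, 2 of them had an unadjusted p under 0.05, and Aloxe3 lay above in 3 and below in 0. Over all tested genes these shares were 12.7%, 11.2% and 8.71%. In the 13 with a window but no core, the median was -0.03, 1 had an unadjusted p under 0.05, and Aloxe3 lay above in 1 and below in 1. Ifit2 belongs to the second set. As shares of 13 genes, Aloxe3 above made up 23.1% with a core and 7.7% without. The sets were not tested against each other. Their β-gal levels had similar medians, 10.0 and 10.3 RPKM, and the ranges of log2 fold changes, -0.04 to 0.14 with a core and -0.13 to 0.22 without, overlapped.

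The signals that would set the members in motion were then looked at in further pathway genes, of which 110 were listed, 108 were in the table and 77 were tested. Of 20 ligand genes 16 were listed at 0 in every library, among them Ifnb1, Ifng, Ifnl2 and Ifnl3. Trex1, a nuclease that most cells express, was listed at 0 in every library as well, and reads without a unique position, as from the closely similar interferon alpha genes, were not counted, so that a 0 here is not evidence that the RNA was absent. The other 4 ligands had 27 derived reads over the 6 libraries, 22 of them in Ifnk, at 0.269, 0.0383 and 0.126 RPKM with β-gal and 0.0487, 0.204 and 0.235 RPKM with Aloxe3, which overlapped. No ligand passed the filter, and none was tested.

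The receptors, Janus kinases, STAT and related regulators (17 tested) held 0 calls, against 0.394% of all tested genes. An unadjusted p under 0.05 was found in 2, or 11.8%, against 12.7% of all tested genes. The groups did not overlap in 5, or 29.4%, against 19.9%, with Aloxe3 above in 3 and below in 2. Ifngr1, a chain of the receptor for interferon gamma, was at 30.1, 30.1 and 31.2 RPKM with β-gal and 33.2, 32.1 and 31.8 RPKM with Aloxe3. Jak2, the kinase bound to that receptor, was at 10.1, 10.4 and 10.3 RPKM and at 10.9, 11.9 and 10.7 RPKM. In both, Aloxe3 lay above (limma, unadjusted p = 0.0460 and 0.0484, adjusted p = 0.386 and 0.392). Ifnar1, a chain of the type I interferon receptor, was at 23.4, 24.0 and 23.7 RPKM and at 23.2, 23.1 and 22.0 RPKM, with Aloxe3 below (adjusted p = 0.575, limma).

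Of the 13 sensor adapters and kinases, 0 were called, against 0.394% of all tested genes. An unadjusted p under 0.05 was found in 1, or 7.7%, against 12.7% of all tested genes. The groups did not overlap in 3, or 23.1%, against 19.9%, with Aloxe3 above in 2 and below in 1. Myd88, the adapter of most Toll-like receptors, was at 21.3, 22.7 and 22.8 RPKM with β-gal and at 21.1, 19.1 and 19.6 RPKM with Aloxe3. Aloxe3 lay below without overlap, by a log2 fold change of -0.15 (SE 0.05, limma, unadjusted p = 0.0143, adjusted p = 0.289). Tank, a scaffold of the kinases that act on Irf3, was at 4.30, 4.61 and 4.47 RPKM and at 4.69, 4.86 and 4.93 RPKM, with Aloxe3 above (adjusted p = 0.429, limma). Mavs, the adapter on mitochondria through which RIG-I and MDA5 signal, was at 12.7, 12.9 and 13.1 RPKM and at 13.3, 13.4 and 13.0 RPKM, with overlap. Among other sensors and nucleases (7 of 12 tested) 0 were called and 1 had an unadjusted p under 0.05, or 14.3%, against 12.7% of all tested genes. The groups did not overlap in 2, or 28.6%, against 19.9%. Ifi204, a DNA sensor, was at 4.07, 3.86 and 4.11 RPKM and at 5.06, 4.50 and 5.07 RPKM, with Aloxe3 above (log2 fold change 0.23, SE 0.05, limma, unadjusted p = 0.00339, adjusted p = 0.196). Adar, the enzyme that edits adenosine in double-stranded RNA, was at 24.7, 24.6 and 23.7 RPKM and at 23.6, 24.0 and 22.5 RPKM, with overlap.

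A single gene of the further lists was called. Iigp1 (ENSMUSG00000054072), an immunity-related GTPase that interferon gamma induces and that attacks the vacuoles of parasites, was at 9.75, 10.6 and 11.4 RPKM with β-gal and at 14.7, 14.3 and 14.9 RPKM with Aloxe3. Every Aloxe3 library lay far above every β-gal library, and the gene rose by a log2 fold change of 0.43 (SE 0.06, 95% interval 0.31 to 0.56, limma, adjusted p = 0.0270). The size hardly moved when libraries were left out, from 0.38 to 0.48, but the call was kept only without β-gal 3 (adjusted p = 0.0457) and lost without any of the other 5 libraries, with an adjusted p up to 0.129. It was lost too without the filter on low values (adjusted p = 0.146) and without the variance trend (adjusted p = 0.0513), while voom gave an adjusted p of 9.51e-04. This was 1 call among 41 other interferon-stimulated genes tested, whose median log2 fold change was 0.0072, or 1 of 77 over the further lists, against 0.355% of all tested genes called higher.

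In that list 5 of the 41 tested genes had an unadjusted p under 0.05, or 12.2%, against 12.7% of all tested genes. Aloxe3 lay above in each (Iigp1, Tgtp1, Ifit3b, Pml and Herc6), and 7.31% of all tested genes met that threshold in that direction. The lists were chosen with earlier results of these data known. Ifit3b, Pml and Herc6 are outside the rule for named genes and are named here after their values were seen. Tgtp1, another immunity-related GTPase, was at 0.948, 1.04 and 1.26 RPKM and at 1.70, 1.57 and 1.46 RPKM (log2 fold change 0.31, SE 0.07, limma, unadjusted p = 0.00346, adjusted p = 0.198). Ifit3b, a near copy of Ifit3 in the same cluster, was at 3.42, 3.11 and 3.45 RPKM and at 3.94, 4.13 and 3.93 RPKM (limma, adjusted p = 0.200). Reads that fit both copies were not counted, so the split between Ifit3 and Ifit3b is uncertain, as is that of Tgtp1 and its copy. Over the 77 further genes the unadjusted p was under 0.05 in 9, or 11.7%, and the groups did not overlap in 16, or 20.8%. The same shares of all tested genes were 12.7% and 19.9%.

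**Figure D5:**
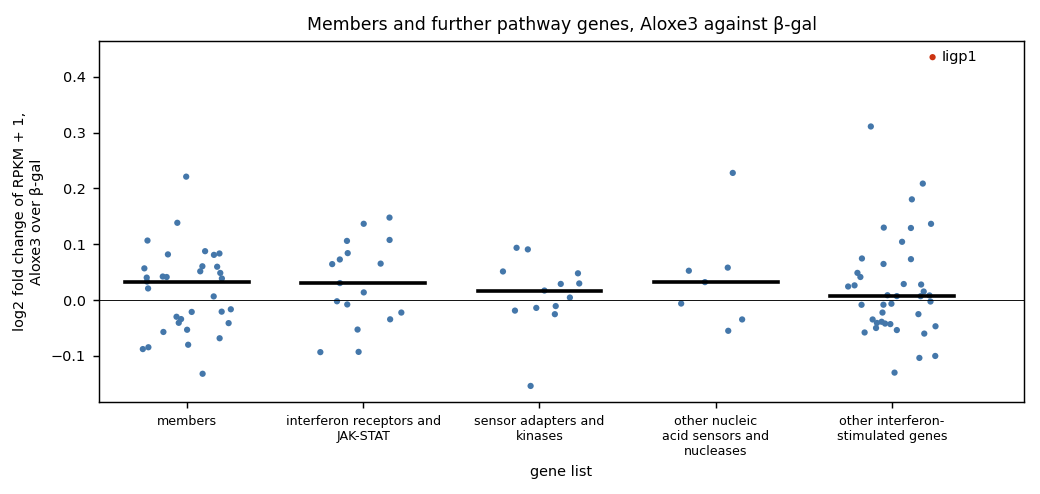
Log2 fold change of RPKM + 1 between Aloxe3 and β-gal for the tested members and for 4 lists of further pathway genes; dots are genes, black lines medians, and red marks an adjusted p under 0.05 in limma. A gene that stands in 2 lists is drawn in both. Iigp1 (0.43) is the only red dot, and the medians lie between 0.0072 and 0.03.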

How the data were processed

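RNA was sequenced as single reads of 50 bases after poly-A selection. Per the submitters' processing notes and the study's methods, the authors used STAR 2.0.4b to align reads (GRCm38.p2) and featureCounts 1.4.5 to count those with a unique position. A strand setting is not given in the sources used here. The authors deposited RPKM values, which were used as they are. Groups came from the sample labels.

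The test was limma 3.58.1 (R 4.3.3; eBayes with a variance trend) on log2(RPKM + 1), for genes averaging 0.5 RPKM or more, with Benjamini-Hochberg adjustment at 0.05. The script was tested on simulated data. Alternatives were other filters (none, 5 RPKM), a pseudocount of 0.1, rescaled medians, quantile normalization, no trend, voom and each library left out. For voom, reads were derived from the RPKM steps and exon lengths (within 0.001 of a whole number) and scaled by TMM. For some genes they are known up to a common factor. Symbols and coordinates come from GENCODE M21 (GRCm38), to which 40340 of 41388 identifiers matched. Gbp5 and Gbp6 were not analysed here. Python 3.11.15, pandas 2.3.3 and matplotlib 3.10.9 were used for counts and plots.

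The members and lists were chosen with earlier results of these data known. Values per library are given for the 2 members of each role with the smallest p and the 1 with the highest mean, for Oas2, Mx1, Mx2, Ifnk and Ifit3b in addition, and for further genes by the same p rule or by name (Ifnb1, Ifnar1 and Mavs). Another gene of the rule is not reported here.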

Additional observations from a re-analysis of the deposited data

How the results depend on the processing

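No paired analysis was possible because the groups share no replicate numbers. In each of the alternatives 0 members were called. Their smallest adjusted p was 0.114 (Ifit2, voom) and, leaving out a library, 0.267. Of 224 members' values under the other alternatives, 4 had the other sign, each close to 0: Ddx58 when rescaled to the same median (-0.0067), and Oas3 (-0.0024), Oasl1 (0.016) and Mx2 (-0.026) with quantile normalization. Leaving out libraries turned the sign in 13 of 198 values. The ranges of the 8 members concerned were -0.013 to 0.025 (Ddx58), -0.080 to 0.0044 (Oas1a), -0.0075 to 0.12 (Oas1b), -0.031 to 0.012 (Oasl1), -0.0069 to 0.099 (Oasl2), -0.011 to 0.045 (Mx2), -0.056 to 0.023 (Gbp2) and -0.0079 to 0.14 (Cmpk2). All genes called numbered 50, and 7 without the filter, 155 with voom and 6 to 19 leaving out a library, where fewer samples entered. Leaving out a library, members with an unadjusted p under 0.05 numbered 1 to 5 (3.03% to 15.2%, against 8.15% to 14.4% of all tested genes), and those without overlap 6 to 11 (18.2% to 33.3%, against 26.5% to 32.9%), as groups of 2 overlap less often. The members' median was -0.0049 with a filter at 5 RPKM, which tests fewer genes, and -0.0017 to 0.031 leaving out a library. Further genes called numbered 0 without the filter, 0 without the trend and 0 to 1 leaving out a library. Rescalings moved the median of all genes by -0.0114 (same median) and -0.0107 (quantile). Genes with few reads, such as Oas2 and Mx1, limit what the depth can show.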
